A study of Mus musculus with 6 samples.

Results

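Sgk1 and Fkbp5 were followed in the brains of 3 pups whose dams ate a high-fat diet (the MHFD group) and 3 pups whose dams ate a normal diet (the MND group). They were picked by their rat Ensembl identifiers, ENSRNOG00000011815 for Sgk1 and ENSRNOG00000022523 for Fkbp5, and are 2 of the 32623 genes of the count table. Both identifiers were found, and both genes passed the filter on low counts. The dams of the MHFD group received the high-fat diet from before mating through pregnancy and suckling, and the dams of the MND group stayed on the normal diet. The labels name no other agent or allele. The study words the time of mating differently for the dams on each diet, so diet and the timing of mating may not be separable. Brains were taken at day 21, the last day of lactation, and each brain gave 1 library. The sample labels name C57BL/6 mice, whereas the study describes Sprague-Dawley rats and every gene identifier of the table is a rat one. The sex of the sequenced pups and the number of dams behind each group are not given, so pups of a group may share a litter, and the p-values measure only the spread between these 6 libraries.

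Glucocorticoids, mainly corticosterone in rodents, enter cells and bind the glucocorticoid receptor, which then moves to the nucleus and switches target genes on or off. Sgk1 and Fkbp5 are among the genes most often used as readouts of the activated receptor in brain. Sgk1 encodes the serum- and glucocorticoid-regulated kinase, a relative of the Akt kinases that is itself activated through PI3K signalling and that acts on ion channels and transporters. Fkbp5 encodes the co-chaperone FKBP51, which binds the receptor's Hsp90 complex and lowers the affinity of the receptor for hormone, so that its induction forms a feedback brake. Hormone levels were not part of the sequencing data.

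The glucocorticoid response element, the DNA letters to which a receptor pair binds, is usually written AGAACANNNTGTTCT, where N is any base; it reads the same on both strands. A sequence with these letters is shown to illustrate the element. Whether the receptor binds it was not tested here. Promoter sequences at hand were of the mouse (RefSeq, GRCm38.p6), matched by symbol for both genes, so they describe the mouse counterparts and not the rat genes that were counted. The mouse table held 6 Sgk1 windows, each from 250 bases before to 50 bases after a transcript start, and 1 Fkbp5 window. The element was present in 1 of the 6 Sgk1 windows, between 189 and 175 bases before the transcript start, and these letters did not occur in the Fkbp5 window. Bases outside these windows were not searched, so the element may lie elsewhere in or near either gene. Among all 32851 mouse promoter windows of this length, 3 held it, or 0.00913%. The stretch lies at chr10:21993671-21993745 on the plus strand, upstream of an annotated Sgk1 transcript start, and capitals mark the match.
Sgk1 (mouse): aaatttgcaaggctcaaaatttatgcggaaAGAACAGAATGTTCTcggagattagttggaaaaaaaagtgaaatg

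The libraries held between 43679373 and 61385917 counts. In MHFD replicates 2 and 3, the top 10 genes by abundance held 17.1% and 18.3% of the counts, against 13.4% to 14.7% in the other 4 libraries; the part of this share in the values of Sgk1 and Fkbp5 was not tested. The scaling factors from the TMM method lay between 0.985 and 1.011, so scaling moved the members' values little. In every library more genes held 4 counts (430 to 487) than 3 (223 to 272) or 5 (132 to 160), so a count need not be a fragment. Even if every fragment had added 4 counts, the counting error of the members would lie between 1.94% and 4.62% of their value in any library. With 1 library per brain, differences between animals and between library preparations cannot be told apart in the spread within a group. The values below are CPM, the counts scaled to a common library size and by TMM, a unit that does not correct for gene length, so the level of Sgk1 is not compared with that of Fkbp5.

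Sgk1, the kinase, averaged lower in the MHFD brains, by 33.4%, but the groups overlapped and the difference did not pass the test. In the MHFD group it stood at 71.1, 122 and 91.6 CPM in replicates 1, 2 and 3, from 4353, 5814 and 4008 counts. In the MND group it stood at 175, 153 and 100.5 CPM in replicates 1, 2 and 3, from 10593, 7948 and 5202 counts. MND replicates 1 and 2 lay above every MHFD library, while MND replicate 3 lay below MHFD replicate 2, so that the overlap came from that one pair of animals. The group levels came to 95.0 ± 25.8 CPM for MHFD against 143 ± 38.1 CPM for MND (SD, n = 3 each). The log2 fold change was -0.59 (standard error 0.260), with a 95% interval from -1.20 to 0.03. In edgeR's quasi-likelihood test the unadjusted p was 0.0593 and the adjusted p over all 16776 tested genes was 0.582. The exact permutation test of the mean log2 CPM (two-sided, over the 20 ways to draw 3 of 6 libraries) gave p = 0.2, where 0.1 is the smallest p this design allows.

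**Figure D1:**
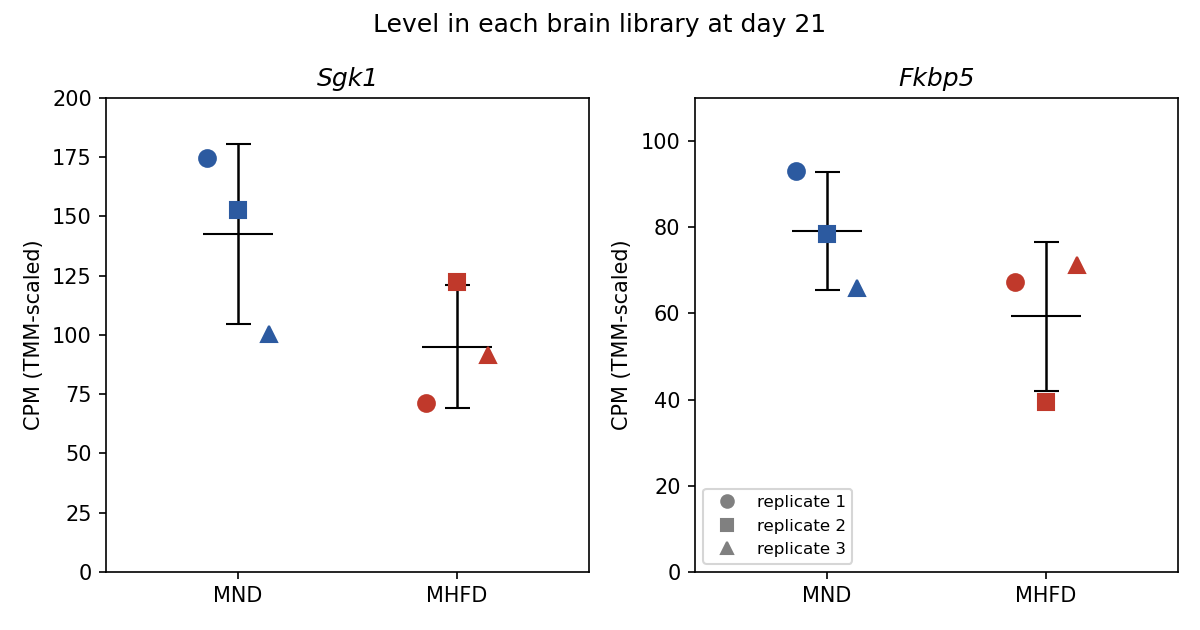
CPM after TMM scaling (vertical axes from 0, one panel per gene) in each of the 6 brain libraries, by maternal diet; symbols mark the replicate, the wide dash the group mean and the bars 1 SD. Sgk1 runs from 71.1 CPM in MHFD replicate 1 to 175 CPM in MND replicate 1, and Fkbp5 from 39.5 CPM in MHFD replicate 2 to 93.1 CPM in MND replicate 1, with overlap between the groups for both genes.

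Fkbp5, the co-chaperone, averaged 25.0% lower in the MHFD brains, again with overlapping groups and without passing the test. The MHFD libraries held 67.2, 39.5 and 71.3 CPM in replicates 1, 2 and 3, from 4116, 1878 and 3122 counts. The MND libraries held 93.1, 78.4 and 65.9 CPM in replicates 1, 2 and 3, from 5644, 4084 and 3410 counts. MND replicates 1 and 2 were again the highest libraries, MND replicate 3 lay just below MHFD replicates 1 and 3, and MHFD replicate 2 stood well under the other 5. The group levels came to 59.4 ± 17.3 CPM for MHFD against 79.1 ± 13.6 CPM for MND (SD, n = 3 each). The log2 fold change was -0.41 (standard error 0.238), with a 95% interval from -0.98 to 0.15. The unadjusted p of edgeR's quasi-likelihood test was 0.126 and the adjusted p was 0.656; the exact permutation test gave p = 0.3.

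Neither gene was called at an adjusted p under 0.05 in edgeR's test, a rule that called 0.00596% of the tested genes. Neither was called at an unadjusted p under 0.05, a rule that called 8.68% of the tested genes, 3.78% as lower and 4.90% as higher in the MHFD group. For neither gene did the groups part without overlap, as they did for 13.9% of the tested genes, 6.83% with all MHFD libraries below all MND libraries. An unadjusted p as small as that of Sgk1 or smaller was found for 10.2% of the tested genes, and for Fkbp5 this share was 19.2%. A log2 fold change as low or lower was found for 5.66% of the tested genes in the case of Sgk1 and for 9.07% in the case of Fkbp5. The median log2 fold change of all tested genes was 0.002, so both genes lay on the lower side of a distribution centred near 0. The interval of Sgk1 runs from 0.435 to 1.02 times the MND level and that of Fkbp5 from 0.507 to 1.11 times, so the data leave room both for a large decrease and for no change.

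**Figure D2:**
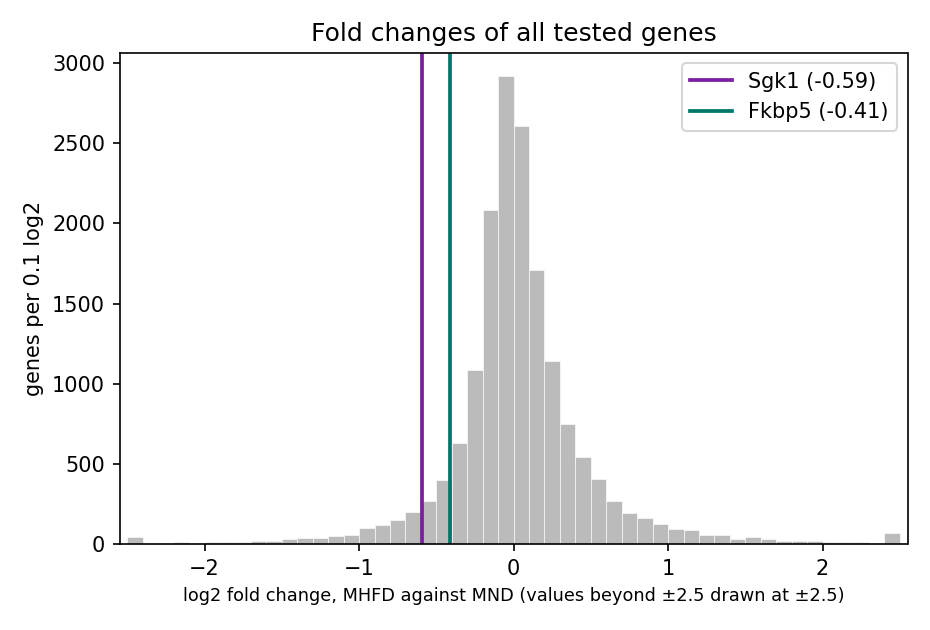
Number of genes (vertical axis) by log2 fold change between the MHFD and MND groups (horizontal axis, bins of 0.1) for the 16776 tested genes; vertical lines mark Sgk1 at -0.59 and Fkbp5 at -0.41. Both lie left of the centre, inside the range that many other genes occupy.

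Both genes varied more between libraries of one group than most genes did. The spread of log2 CPM within groups (pooled SD) was 0.404 for Sgk1 and 0.375 for Fkbp5, against a median of 0.230 over all tested genes. A smaller spread was found for 72.5% of the tested genes in the case of Sgk1 and for 70.0% in the case of Fkbp5. The biological coefficient of variation that edgeR fitted was 0.235 for Sgk1 and 0.219 for Fkbp5, where the trend over genes of their abundance gave 0.166 and 0.164. As a share of the mean, the SD of Sgk1 was 27.2% in the MHFD and 26.7% in the MND group, and that of Fkbp5 was 29.1% and 17.2%. In whole brain RNA, fewer cells that express a gene and less RNA per cell cannot be told apart.

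Single animals weighed on these differences, and MHFD replicate 2 weighed on the pair in opposite ways. Without MHFD replicate 2, the log2 fold change of Fkbp5 shrank to -0.19 (unadjusted p = 0.285, adjusted p = 0.962 from edgeR's test) and that of Sgk1 grew to -0.81 (unadjusted p = 0.0226, adjusted p = 0.951). Without MND replicate 3, Sgk1 reached -0.78 (unadjusted p = 0.0129, adjusted p = 0.320 from edgeR's test) and Fkbp5 -0.53 (unadjusted p = 0.0818, adjusted p = 0.543). MHFD replicate 2 and MND replicate 3 are the pair by which the Sgk1 groups overlapped, so leaving out either had to remove that overlap. An unadjusted p under 0.05 was found for 818 of 17156 genes without MHFD replicate 2 and for 1755 of 17135 without MND replicate 3. Without MND replicate 1, the animal highest in both genes, Sgk1 stood at -0.41 (unadjusted p = 0.187, adjusted p = 0.904 from edgeR's test) and Fkbp5 at -0.28 (unadjusted p = 0.330, adjusted p = 0.917). Sgk1 was also -0.41 without MHFD replicate 1 (unadjusted p = 0.165, adjusted p = 0.481 from edgeR's test), where Fkbp5 was -0.51. Leaving out MHFD replicate 3 gave -0.56 for both genes. Leaving out MND replicate 2 gave -0.53 for Sgk1 and -0.42 for Fkbp5. Both genes were lower in the MHFD group in each of the 6 fits that left out 1 library. Each such fit shares its other libraries with the full fit, so the kept direction is no separate result.

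Across the 6 animals, the levels of the kinase and the co-chaperone did not run closely together. In the MND group the order was the same for both genes, with replicate 1 highest and replicate 3 lowest. In the MHFD group it was not, since replicate 2 was the highest for Sgk1 and the lowest for Fkbp5. On the log2 scale, MHFD replicate 2 lay 0.40 above its group mean for Sgk1 and at -0.54 from it for Fkbp5. The correlation of log2 CPM over the 6 libraries was r = 0.281 (Pearson, exact permutation p = 0.644) and rho = 0.486 (Spearman, exact permutation p = 0.356). Both diet groups were pooled in these coefficients, so the difference between the group means is part of them. A correlation within groups was not tested. Sgk1 and Fkbp5 were the only pair of genes tested in this way, and the p-values were not adjusted for the several coefficients computed on it. Without the libraries farthest from the median of Sgk1, MND replicate 1 and MHFD replicate 1, r was -0.008 over 4 libraries, a value that rests on a narrower range of Sgk1. Over all 6 libraries neither coefficient passed the test, which does not show that the genes are unrelated.

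**Figure D3:**
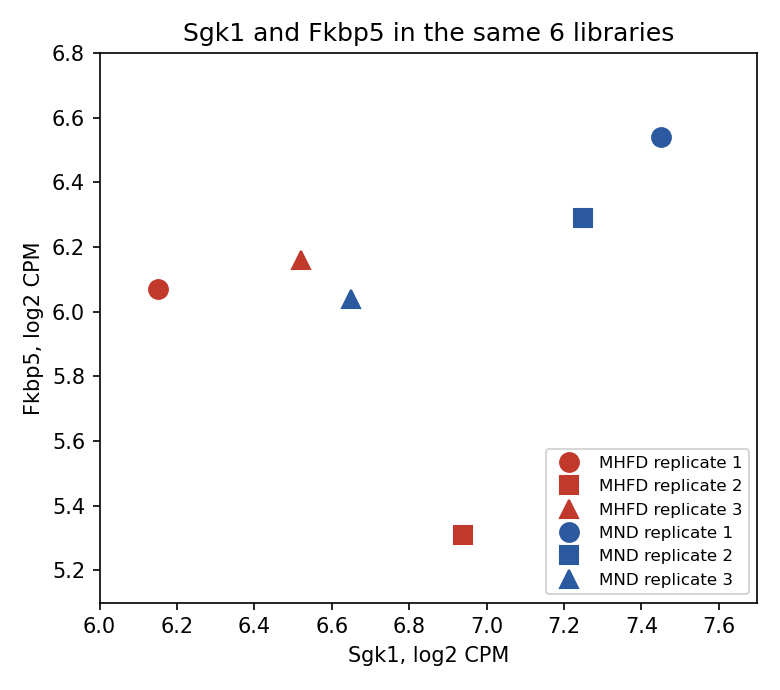
Log2 CPM of Fkbp5 (vertical axis) against that of Sgk1 (horizontal axis), 1 point per library, with colour for the group and symbol for the replicate. MND replicates 1 and 2 lie high on both axes, and MHFD replicate 2 has a log2 CPM of 6.94 for Sgk1 and the lowest Fkbp5 value, 5.31.

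The ratio of Sgk1 counts to Fkbp5 counts within a library needs no scaling between libraries. MHFD replicates 1, 2 and 3 had ratios of 1.06, 3.10 and 1.28. MND replicates 1, 2 and 3 had ratios of 1.88, 1.95 and 1.53. The MND libraries thus lay close together, and the MHFD libraries lay on both sides of them. The mean ratio was 1.81 ± 1.12 for MHFD against 1.78 ± 0.226 for MND (SD, n = 3 each). The MHFD mean rests on replicate 2, as MHFD replicates 1 and 3 lay below every MND ratio. As gene length is not accounted for, only the differences of this ratio between libraries can be read.

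The genes whose pattern over the 6 libraries was nearest to that of each member are given by identifier, because the table does not pair identifiers with symbols. Likeness was the root mean square difference of log2 CPM after centring each gene, over all genes averaging 1 CPM or more. Nearest to Sgk1 was ENSRNOG00000005727, at a difference of 0.0594, followed by ENSRNOG00000033740 at 0.111. The first of these averaged 1.33 CPM in the MHFD and 2.01 CPM in the MND group and the second 3.30 and 4.97 CPM. Nearest to Fkbp5 were ENSRNOG00000046958, at a difference of 0.0579, and ENSRNOG00000018969 at 0.0748. For ENSRNOG00000018969, MHFD replicates 1, 2 and 3 held 25.9, 14.4 and 25.8 CPM, and MND replicates 1, 2 and 3 held 33.6, 30.1 and 27.5 CPM, so it shared the low value of MHFD replicate 2. None of the 4 genes had an unadjusted p under 0.05 in edgeR's test. The genes were picked for likeness over these same libraries, so neither this nor the shared low value is a separate result. Between Sgk1 and Fkbp5 themselves the difference was 0.494. Of the 14497 genes compared, 54.3% were at least as near to Sgk1 as Fkbp5 was, and 67.7% were at least as near to Fkbp5 as Sgk1 was. A gene that hardly varies between libraries can also lie this near, because the measure takes in the size of the changes. These shares therefore do not count genes with a like pattern.

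Under the other normalizations, tests and filters, with counts divided by 4 and with a block for the replicate number, the fold changes moved little. Over these 11 settings Sgk1 had log2 fold changes between -0.59 and -0.56 and Fkbp5 between -0.45 and -0.39. The unadjusted p of Sgk1 fell under 0.05 with DESeq2's Wald test (0.0254, adjusted p = 0.362). The same held for edgeR's likelihood-ratio test (unadjusted p = 0.0357, adjusted p = 0.558). At that threshold the Wald test called 1758 and the likelihood-ratio test 1342 of the 16776 tested genes. The adjusted p over all 17 alternatives ran from 0.320 to 0.951 for Sgk1 and from 0.419 to 0.962 for Fkbp5.

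**Figure D4:**
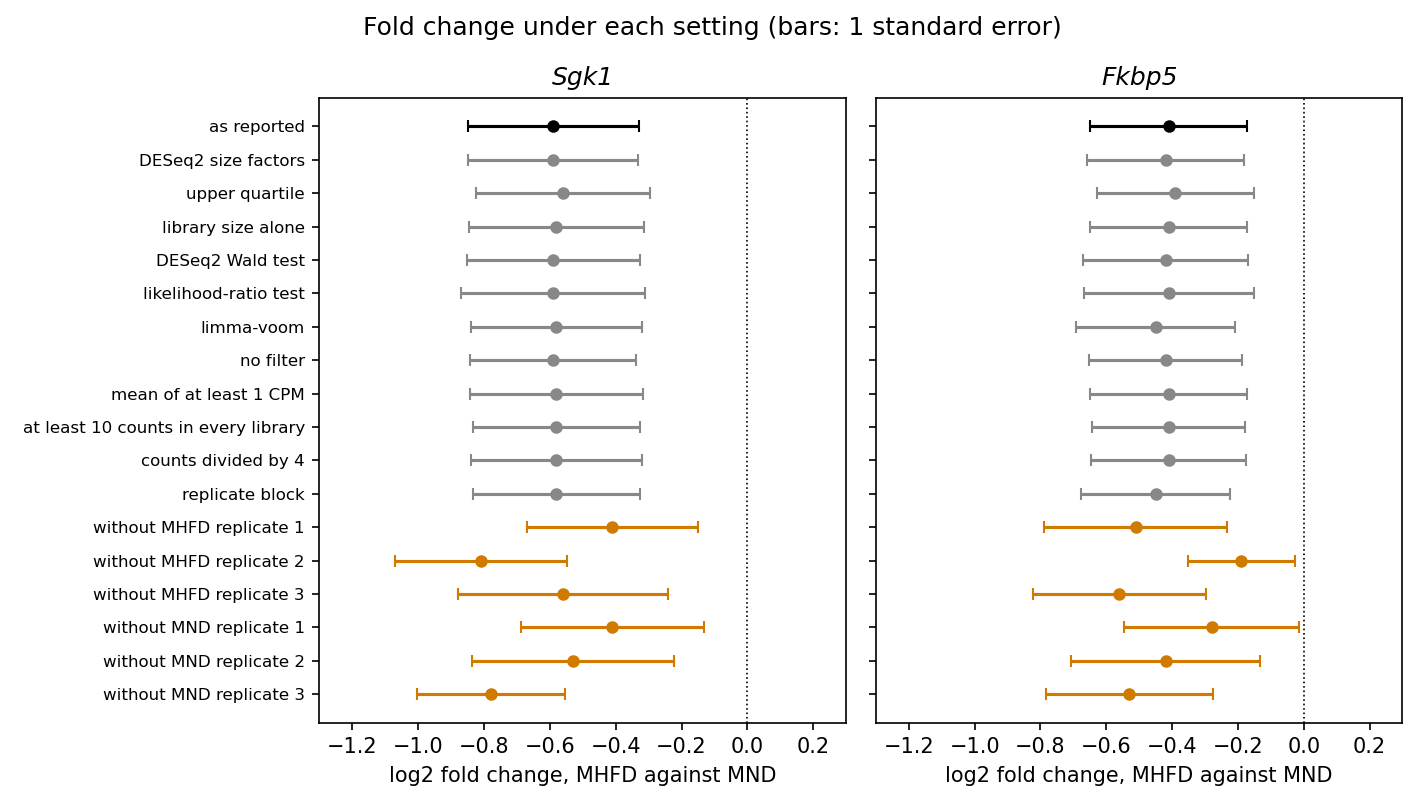
Log2 fold change between the MHFD and MND groups (horizontal axes) of each gene under every setting (rows), with bars of 1 standard error. Black is the value as reported and orange the fits that leave out 1 library. Grey marks the other normalizations, tests and filters, counts divided by 4 and the block for the replicate number. All points lie below 0, and the library left out moves them more than the method does, from -0.81 to -0.41 for Sgk1 and from -0.56 to -0.19 for Fkbp5.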

How the data were processed

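Total RNA of 6 brains was extracted with Trizol, made into Illumina libraries and sequenced by a service company. The authors deposited whole counts per gene for each library, without normalization. The submitters' processing notes name Bowtie and mm10, a mouse build, whereas the gene identifiers are those of the rat; the counting program and annotation release are not given in the sources used here. The names Sgk1 and Fkbp5 came with the 2 identifiers. The reference tables at hand were of the mouse and held none of the identifiers, so the planned lists (receptor and ligand genes, receptor chaperones, other glucocorticoid-induced genes, the SGK pathway, the FKBP family and cell type markers) were not run, the tissue was not checked against markers, and no rat positions are given.

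The members and lists were chosen with earlier results of these data known. Counts were analysed in R 4.3.3 with edgeR 4.0.16: filterByExpr (minimum count 10, minimum total 15; 16776 genes kept), TMM scaling, and a quasi-likelihood test on group alone with Benjamini-Hochberg adjustment over all tested genes. Log2 CPM used a prior count of 2. Each standard error was taken as the size of the log2 fold change over the root of its F statistic. Intervals are at 95%, from the t distribution with the fit's degrees of freedom. By the rule for named genes, the 2 nearest patterns per member are given. Alternatives were DESeq2 1.42.0, limma-voom (limma 3.58.1), the likelihood-ratio test, other scalings and filters, counts divided by 4, a block for the replicate number, and fits without each single library. Scripts were tested on simulated counts. Libraries of a group were compared in pairs; their chi-square statistic averaged 26.8 or more a gene, and none was a copy of another.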

Additional observations from a re-analysis of the deposited data

How the results depend on the processing

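Sgk1 and Fkbp5 kept their direction and stayed above an adjusted p of 0.05 in all 17 alternatives. The alternatives reuse the same libraries, so the kept direction is no separate result. Leaving out each library gave log2 fold changes from -0.81 to -0.41 for Sgk1 and from -0.56 to -0.19 for Fkbp5. The replicate block gave -0.58 for Sgk1 and -0.45 for Fkbp5. The labels give same-numbered libraries nothing in common but the number. Their deviations from the group means correlated at -0.0866, 0.00108 and -0.144 across genes. Whether they share a batch or another factor was not tested.

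The number of genes at an unadjusted p under 0.05, 1456, lay between 818 and 2904 when single libraries were left out, lowest without MHFD replicate 2 and highest without MHFD replicate 1; it also moved by over 1.5 times without MHFD replicate 3 (902) and MND replicate 1 (875). The number at an adjusted p under 0.05, 1 in the quasi-likelihood test, was 198 with DESeq2's Wald test and 98 with the likelihood-ratio test. It was 0 with limma-voom (beside 1424 genes at an unadjusted p under 0.05), 0 for the filter of 10 or more counts in every library (1482), 0 with counts divided by 4 (1371) and 0 with the replicate block (1078). Leaving out each library gave from 0 (without MHFD replicate 3) to 28 (without MHFD replicate 1). The cause was not tested. Counting error, at most 4.62% of a member's value in any library if each fragment added 4 counts, covers sampling of reads only; differences between animals and between library preparations were not separated.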
